A study of Arabidopsis thaliana with 24 samples.

Results

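The ACR4 line of the Col0 wild type of Arabidopsis thaliana was set against the mean of the 4 other wild-type lines that mark a root layer, named SHR, SCR, CO2 and WER. The 10 libraries were taken by line and genotype from the sample titles, 2 of ACR4 and 8 of the other lines, out of 24 in the series, and no measured value entered the choice. All plants were Columbia-0 seedlings that carried HF:RPL18, the large-subunit protein L18 of the ribosome fused to His and FLAG tags, so that ribosomes with their mRNAs could be pulled from root extracts on anti-FLAG beads. The lines differed in the promoter of this transgene, and the submitters assign pACR4 to the columella, pWER to the epidermis, pCO2 to the cortex, pSCR to the endodermis and pSHR to the stele. Roots were sampled 6 days after the move to light, from plants grown upright on plates at 22 °C in long days, with about 20 plates for each library. Whole roots were ground, so a line is as specific as its promoter and as the washing of the beads. A second set of the same lines in the hyl1 mutant, which lacks a helper of microRNA processing, gave the same contrast in libraries of its own. The 4 libraries of the 35S promoter were not compared and entered only the choice of tested genes, the scaling and the estimate of the spread. The comparison asks which ribosome-bound transcripts set the ACR4 line apart from the other layers.

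The root cap covers the root tip. Its centre, the columella, holds starch-filled cells that sense gravity, and its flanks, the lateral root cap, share a stem cell with the epidermis. NAC transcription factors of the SMB and BEARSKIN group drive the maturation of cap cells, after which the outer cells die or are shed with the help of wall-degrading enzymes. ACR4, named CR4 in the gene table used here, is a receptor-like kinase that restrains divisions of columella stem cells and is also made in young epidermis and in founder cells of lateral roots.

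The ACR4 libraries held 8589721 and 8193056 counts, and the 8 other libraries between 2868803 and 12099878. Depth was highest in WER, at 10686837 and 12099878, and lowest in SHR, at 2868803 and 4018367. Values are given as normalised CPM, counts scaled to a common library size, always in the order replicate 1, replicate 2. The ACR4 libraries correlated with each other at r = 0.972 on log2 CPM across genes, which are not independent replicates, against 0.926 to 0.935 between the replicates of the other lines. They correlated at 0.90 to 0.944 with the WER libraries, 0.857 to 0.912 with SCR, 0.862 to 0.892 with CO2 and 0.83 to 0.838 with SHR. A fixed set of 10 transcripts was taken, those with the largest summed share over the 10 wild-type layer libraries. It took 9.88 and 10.7% of the counts in the ACR4 libraries, 4.85 to 7.93% in WER and 15.9 to 30.7% in the other 6. Transcripts of the mitochondrial genome took 2.56 and 2.37% in ACR4, 1.47 to 2.09% in WER and 4.28 to 9.21% in the rest. These shares moved with the contrast, and their part in the results was not tested.

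The wild-type SCR library of replicate 2 stood apart from its partner. Its 22 tested endodermis markers summed to 1648 CPM against 5985 in replicate 1, and its 15 tested columella and root cap markers to 275 against 111. CO2 replicate 2 differed the same way to a lesser degree for the cap markers, at 207 against 116 CPM. Counts without SCR replicate 2, and without it and CO2 replicate 2, are therefore given beside the results or, for the smaller lists, together after the falls. The SHR and WER libraries carried library numbers outside the run of the ACR4, SCR and CO2 lines, so for them line and run cannot be told apart, and counts against the SCR and CO2 lines alone are given where they bear on a result. Nothing in the labels says that replicates were separate cultures, so each p-value covers only the spread among the deposited libraries, and part of it may be technical. Fewer cells of a type and less RNA in each cell cannot be told apart in such samples.

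The transcript of the ACR4 gene itself had the largest rise among genes called in the contrast that averaged a log2 CPM of at least 2 and had the same sign against each line. CR4 (AT3G59420) was at 153 and 183 CPM in the ACR4 line, 3.99 and 3.11 in SHR, 5.77 and 4.18 in SCR, 6.54 and 5.59 in CO2 and 9.53 and 8.35 in WER. Both ACR4 libraries were above all 8 others by more than a factor of 10. In all contrasts the mean of the 4 lines was taken over their log2 levels, not over their CPM. The log2 fold change against the mean of the 4 lines was 4.92 (SE 0.20, adjusted p = 5.1e-11) by edgeR's quasi-likelihood test with Benjamini-Hochberg adjustment over 23219 genes, the test and adjustment behind all adjusted p in the text. Against the single lines, the 4 contrasts of which share the ACR4 libraries, it was 5.57 against SHR, 5.07 against SCR, 4.79 against CO2 and 4.23 against WER. The counts cannot separate the native gene from any part of it that the transgene may carry.

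The genes behind the other promoters gave a partial check of the labels. SHR (AT4G37650), a mobile regulator made in the stele, was at 91.2 and 73.9 CPM in its own line and at 2.48 and 7.70 in ACR4, but the contrast with all 4 lines was not called, at −1.42 (SE 0.76, adjusted p = 0.28). SCR (AT3G54220), its partner in the endodermis, was at 82.8 and 33.6 in its own line and 10.5 and 6.96 in ACR4, which was the lowest pair, and fell by 1.21 on the log2 scale (adjusted p = 0.018). WER (AT5G14750, MYB66 in the gene table), a MYB factor of the epidermis and lateral root cap, was at 39.5 and 45.6 CPM in the ACR4 line, 5.53 and 9.59 in SHR, 6.37 and 17.5 in SCR, 7.33 and 7.39 in CO2 and 18.96 and 45.3 in WER. The ACR4 and WER libraries overlapped for WER, all above the 6 others, and the contrast was 1.81 (SE 0.40, adjusted p = 0.0057). The gene the CO2 line is named for (AT1G62500) stayed at 0 to 2.58 CPM in all 10 libraries, with the highest values in its own line, 2.58 and 2.40. RPL18, the gene of the tagged protein, ranged from 1212 to 3752 CPM in these libraries with the ACR4 pair inside that range, at 2164 and 2369.

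Across the genome, 1993 genes were higher and 873 lower in the ACR4 line, 8.58% and 3.76% of the genes tested, with a median log2 fold change of 0.02. Of these 2866 calls, 69.5% were higher, against 55.9% with DESeq2 and 59.4% when only the SCR and CO2 lines formed the mean. Without ACR4 replicate 1 the calls were 1035, of which 858 were higher, and without replicate 2 they were 916, of which 825 were higher, so falls in particular needed both libraries. The calls were 1480 without the SHR line and 4974 without the WER line. They also grew without hyl1 WER replicate 1 or 2, libraries that enter the choice of tested genes, the scaling and the spread, but not the contrast. They were 2909 without SCR replicate 2 and 2744 without it and CO2 replicate 2. The hyl1 WER libraries stood apart, with r = 0.752 between them against 0.926 to 0.972 within the other groups of layer lines, and hyl1 WER replicate 2 had counts for 22330 genes against 25475 to 29651 in the other layer libraries. Of the 127 called genes followed through all alternatives, 50 lost the call without ACR4 replicate 1 and 57 without replicate 2. Both ACR4 libraries lay above all 8 others for 1347 genes (5.8%) and below all 8 for 645 (2.78%). The plot of gene lists sets each list beside this background.

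**Figure D1:**
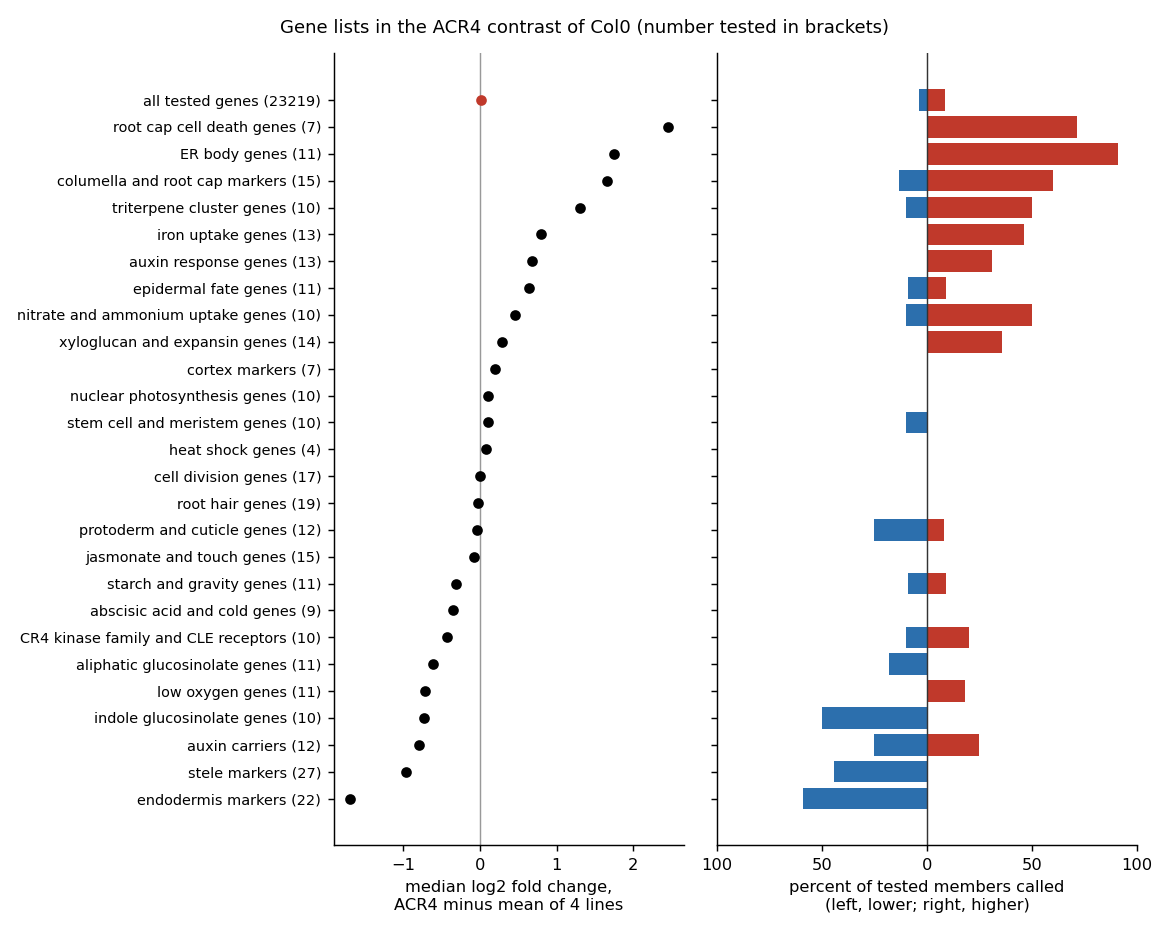
Left, the median log2 fold change of each gene list, ACR4 line minus the mean of the 4 other Col0 lines, with all 23219 tested genes as the red point. Right, the percent of each list's tested members called at an adjusted p under 0.05, higher in red to the right and lower in blue to the left. Cell death, ER body and cap lists lie at the top, with medians of 2.45, 1.74 and 1.65, and endodermis and stele markers at the bottom, with −1.69 and −0.96.

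Markers of the root cap were higher in the ACR4 line, and cap genes of the gravity response were not called higher. Of 15 tested columella and root cap markers, 9 rose and 2 fell, beside 8.58% and 3.76% of all tested genes, with a median log2 fold change of 1.65 beside 0.02. The summed level of the 15 was 935 and 916 CPM in ACR4 and 111 to 275 CPM in the SHR, SCR and CO2 libraries, but 617 and 718 CPM in WER. Both the count of 9 and these sums include CR4, the gene of the line's own promoter, at the levels given above. Part of the margin of the ACR4 sum over WER is therefore CR4, and no sum was taken without it. The 9 members that rose were CR4, the NAC factors SMB, BRN1 and NAC070, the cellulases CEL3 and CEL5, AT1G65570, and the auxin response factors ARF10 and ARF16. The counts were 9 and 2 without SCR replicate 2, 9 and 1 when CO2 replicate 2 was also left out, and 9 and 3 against the SCR and CO2 lines alone. Without either ACR4 library 7 rose and none was called lower.

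SMB (AT1G79580), the NAC factor that ends stem cell divisions in the lateral root cap and drives cap maturation, was at 41.2 and 48.1 CPM in the ACR4 line, 2.46 and 5.96 in SHR, 1.92 and 15.004 in SCR, 3.37 and 7.39 in CO2 and 37.0 and 54.5 in WER. The ACR4 and WER pairs overlapped and stood above the other 6 libraries, of which SCR replicate 2 was the highest. Its contrast was 2.2 (SE 0.45, adjusted p = 0.0032). BRN1 (AT1G33280), a NAC factor of the last stages of cap maturation, was at 109 and 113 CPM in the ACR4 line, 4.92 and 1.04 in SHR, 1.78 and 31.1 in SCR, 2.97 and 14.2 in CO2 and 77.0 and 122 in WER. Again ACR4 and WER overlapped, and SCR replicate 2 came next. Its relative NAC070 (AT4G10350) was at 68.9 and 73.2 in ACR4, inside the 91.3 and 64.1 of WER, and at most 15.8 elsewhere. The log2 fold changes were 2.97 for BRN1 and 3.02 for NAC070, with adjusted p = 0.0013 and 0.0019.

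Among enzymes that loosen walls as cap cells detach, AT1G65570, a pectin lyase-like protein gene, was at 166 and 167 CPM in the ACR4 line, 5.22 and 2.85 in SHR, 2.37 and 32.0 in SCR, 6.34 and 23.56 in CO2 and 64.6 and 41.2 in WER. Both ACR4 libraries were above all 8 others, though closest to WER, where the contrast of 1.65 (adjusted p = 0.2) was not called. The contrast with the 4 lines was 3.44 (SE 0.45, adjusted p = 6.3e-05). The cellulase CEL5 (AT1G22880), known from the shedding of cap cells, was at 164 and 148 in ACR4 and 119 and 197 in WER, and from 12.2 to 58.8 in the other 6 libraries. Its contrast was 2.01 (SE 0.38, adjusted p = 0.0016), and that of CEL3 was 2.56 (adjusted p = 0.014). ARF16 and ARF10, auxin response factors that limit stem cell activity in the columella and are targets of a microRNA, had contrasts of 1.65 (adjusted p = 0.00043) and 1.005 (adjusted p = 0.001). ARF10 was higher in WER than in ACR4, at 82.6 and 77.1 against 70.7 and 48.7 CPM.

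The 6 members that did not rise include genes of the gravity response. ARL2 (AT1G59980), a J-domain protein that acts in columella cells after tilting, was at 0.707 and 0.611 CPM in ACR4 and 1.296 to 7.04 in the others, and fell by 2.07 (adjusted p = 0.014). AT1G72490, listed as LZY3, a symbol the gene table does not hold, was at 2.95 and 3.91 in ACR4 and 21.2 and 23.4 in SCR. Its contrast was −1.41 (adjusted p = 0.029). PIN3, an auxin efflux carrier that columella cells redistribute after tilting, was at 10.7 and 8.06 CPM in ACR4, below the SHR, SCR and CO2 pairs and above WER, with no call. IAA33, FEZ and LZY2 were not called either and stayed at or under 13.8 CPM. Of 11 starch and gravity genes, ADG1 (AT5G48300), the small subunit of ADP-glucose pyrophosphorylase, rose by 1.07 and the starch synthase SS1 fell by 1.46, while 9 were not called and the median was −0.31. Set against its label of columella, the line held raised levels of cap maturation and separation genes, as did WER, and the gravity genes ARL2 and PIN3 were not called higher.

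**Figure D2:**
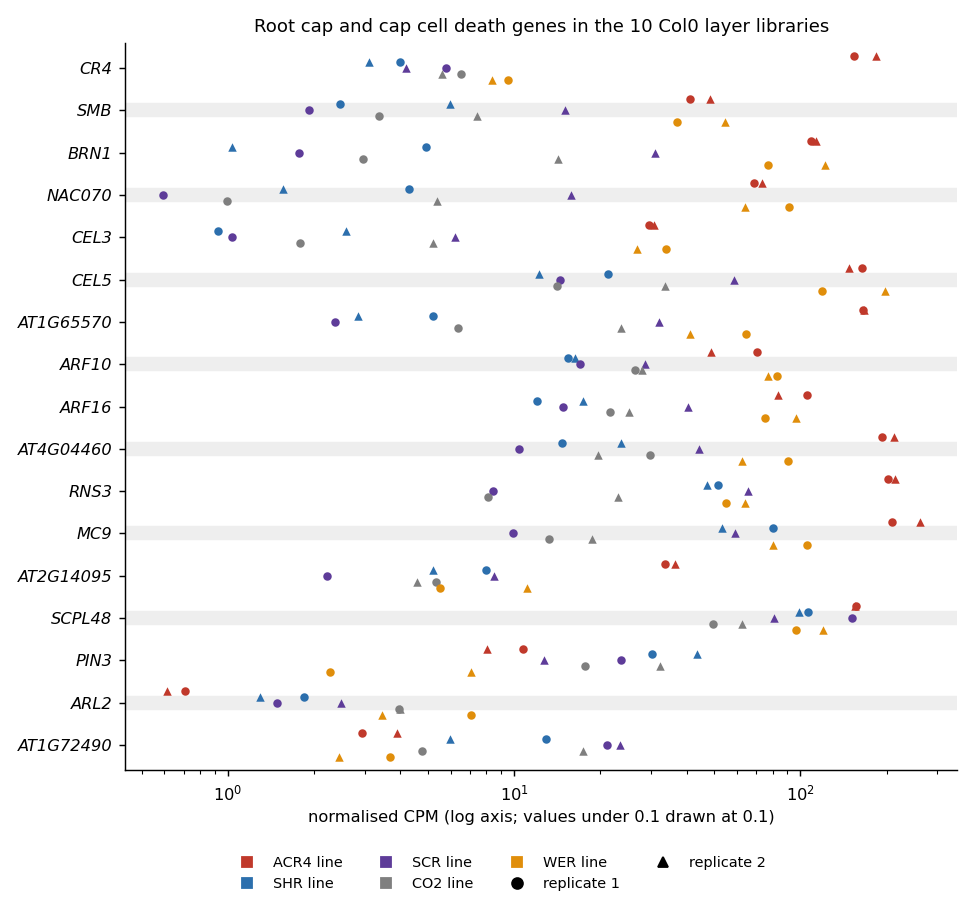
Normalised CPM on a log axis of cap and cap cell death genes in the 10 Col0 layer libraries. Each point is 1 library, coloured by line, circles for replicate 1 and triangles for replicate 2. ACR4 and WER points share the right side for SMB, BRN1, NAC070 and CEL5, ACR4 stands alone for CR4, MC9 and RNS3, and ARL2 and AT1G72490 are low in ACR4.

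Genes tied to the programmed death of cap cells were higher in the ACR4 line. Of the 7 tested, 5 rose and none fell, beside 8.58% and 3.76% of all tested genes, with a median of 2.45. Both ACR4 libraries were above all 8 others for 6 of them, beside 5.8% of all genes. The summed level was 819 and 906 CPM in ACR4, 361 and 342 in WER and 115 to 298 in the other 6 libraries. RNS3 (AT1G26820), a ribonuclease, was at 202 and 213 CPM in the ACR4 line, 51.6 and 47.2 in SHR, 8.44 and 65.7 in SCR, 8.12 and 23.0 in CO2 and 54.9 and 64.0 in WER. MC9 (AT5G04200), a metacaspase known from the clearing of dead xylem cells, was at 209 and 261 CPM in the ACR4 line, 79.9 and 53.4 in SHR, 9.92 and 58.9 in SCR, 13.3 and 18.8 in CO2 and 106 and 80.4 in WER. For both genes the ACR4 pair was above all 8 others, and the WER and SHR pairs lay close to each other. The contrast was 2.53 (SE 0.37, adjusted p = 0.00022) for RNS3 and 2.45 (SE 0.32, adjusted p = 7.2e-05) for MC9. The aspartyl protease gene AT4G04460 was at 193 and 212 CPM in ACR4 and at most 90.8 elsewhere, AT2G14095 at 33.6 and 36.4 and at most 11.1, with contrasts of 2.68 (adjusted p = 4.5e-05) and 2.50 (adjusted p = 0.00054). The serine carboxypeptidase SCPL48 rose by 0.75 (adjusted p = 0.015). BFN1, a nuclease, was at 15.8 and 17.1 in ACR4 and at most 10.6 elsewhere, and the membrane protein DMP4 at 9.66 and 11.97 in ACR4, 27.3 and 23.3 in SHR and 0 and 0.844 in WER, and neither was called. Against WER alone, 1 of the 7 was called higher, at a median of 1.56, beside 2.39% of all genes. With SCR replicate 2 left out 6 were called, with CO2 replicate 2 left out as well 5, and without either ACR4 library 4.

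Besides CR4, the 15 largest rises included 2 beta-glucosidases, 4 lectin genes, a cellulose synthase-like gene and a desaturase. BGLU35 (AT1G51470), a myrosinase of roots that cleaves glucosinolates, was at 3329 and 3662 CPM in the ACR4 line, 20.3 and 45.9 in SHR, 23.5 and 638 in SCR, 50.7 and 177 in CO2 and 702 and 953 in WER. The ACR4 pair was the highest by more than a factor of 3, WER came next, and SCR replicate 2 held far more than its partner. Its contrast was 4.28 (SE 0.53, adjusted p = 4.7e-05). The related BGLU34 (AT1G47600) followed the same order at 3196 and 3339.9 CPM in ACR4 and 812 and 1116 in WER, with 4.15 (SE 0.52, adjusted p = 4.6e-05), and the similar pair may share reads. CSLB02 (AT2G32620), a cellulose synthase-like gene, was at 186 and 173 CPM in the ACR4 line, 0.614 and 1.81 in SHR, 2.22 and 35.3 in SCR, 6.14 and 12.2 in CO2 and 93.6 and 119 in WER. ACR4 was again highest and WER second, and the contrast was 3.86 (SE 0.45, adjusted p = 3e-05). ADS1 (AT1G06080), a fatty acid desaturase, was at 109.8 and 103 in ACR4, 30.0 and 29.4 in WER and at most 23.7 elsewhere, with 3.94 (SE 0.70, adjusted p = 0.00099). The neighbouring lectin genes AT1G52050 and AT1G52060, which may also share reads, had 3.70 and 3.71, and the lectin genes AT1G16905 and AT5G35940 3.62 and 3.47. The TatD-related DNase gene AT3G03500 reached 3.88, the terpenoid synthase gene AT3G20160 3.86, AT5G58784 of the undecaprenyl pyrophosphate synthetase family 3.59 and AT1G27110 3.47. None of these 12 genes after CR4 passed the test against WER alone, where the values ran from 0.22 to 2.08. The chitinase family gene AT2G43600 and the lipid transfer protein gene AT4G22640, also among the 15 largest rises, were at 0 in both SHR libraries, and no fold is given for them. AT2G43600 was at 34.5 and 45.4 CPM in ACR4 and 29.1 and 27.8 in WER, and AT4G22640 at 29.6 and 34.8 and 14.4 and 25.5.

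ER bodies are stores of beta-glucosidase in the endoplasmic reticulum of root and seedling cells. Of 11 genes listed for ER bodies, among them lectins and a nitrile specifier protein, 10 rose and none fell. Over all tested genes 8.58% rose and 3.76% fell. The median of the list was 1.74, and TSA1 was not called. The list summed to 33258 and 31959 CPM in ACR4, 20848 and 22136 in WER, 10502 and 13954 in SCR, and 4050 to 6603 in SHR and CO2. BGLU23 (AT3G09260, PYK10), the main enzyme of the bodies, was at 18690 and 17351 CPM in the ACR4 line, 3064 and 2557 in SHR, 7258 and 8199.7 in SCR, 3364 and 4168 in CO2 and 8981 and 10625 in WER. Both ACR4 libraries were above all others and the ranges of the lines did not meet. Its contrast was 1.76 (SE 0.15, adjusted p = 2.3e-06), and against WER alone it was 0.88 (adjusted p = 0.03). BGLU22 (AT1G66280) was at 1854 and 1715 CPM in the ACR4 line, 108 and 116 in SHR, 162 and 505 in SCR, 147 and 207 in CO2 and 1327 and 1635 in WER, where ACR4 was only just above WER, with 2.50 (SE 0.24, adjusted p = 4.9e-06). BGLU21 rose by 2.23, PBP1, a lectin that binds PYK10, by 2.13 and NAI2, which shapes the bodies, by 1.99. NAI2 overlapped between ACR4 and WER. In all, 2 of the 11 were higher than in WER alone, beside 2.39% of all genes. The count of 10 stayed with SCR replicate 2, or that library and CO2 replicate 2, left out, and was 9 without either ACR4 library.

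About as many iron and nitrogen genes rose as were not called, while over all tested genes 8.58% rose and 3.76% fell. Of 13 iron uptake genes, 6 rose and none fell, at a median of 0.80, and the list summed to 6009 and 4452 CPM in ACR4, 8053 and 8621 in WER and 713 to 2255 in the other libraries, of which AHA2 alone made 4575 and 3289 in ACR4 and 6150.5 and 6352 in WER. IRT1 (AT4G19690), the main iron importer, was at 182 and 184 CPM in the ACR4 line, 24.0 and 39.7 in SHR, 25.6 and 59.2 in SCR, 29.1 and 73.7 in CO2 and 218 and 316 in WER, so that WER was above ACR4 and both above the rest. The contrasts were 1.48 (adjusted p = 0.0053) for IRT1, 1.53 (adjusted p = 0.0034) for its regulator FIT, 1.32 (adjusted p = 0.00013) for the proton pump AHA2, 1.29 (adjusted p = 0.001) for the exporter ABCG37 and 1.14 (adjusted p = 0.0052) for F6'H1 of coumarin synthesis. The count fell to 1 without ACR4 replicate 1, to 4 without replicate 2 and to 2 without the SHR line. Of 10 nitrate and ammonium genes 5 rose and 1 fell, at a median of 0.45, and the 5 became 3 without ACR4 replicate 1 or without the SHR line. The nitrate transporter NPF6.3 (AT1G12110) was at 1641 and 1062 CPM in the ACR4 line, 77.4 and 105 in SHR, 114 and 411 in SCR, 189 and 316 in CO2 and 1189 and 1379 in WER, with 2.19 (SE 0.27, adjusted p = 4.9e-05). Ammonium transporters split. AMT1;1 and AMT1;3 rose by 2.121 and 1.87, and AMT1;2, highest in SCR at 239 and 81.2 CPM, was at 10.5 and 8.06 in ACR4 and fell by 1.94 (adjusted p = 0.0026). NRT3.1, the partner protein of high-affinity nitrate transporters, rose by 1.65.

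Auxin carriers split as well. Of 12, 3 rose, 3 fell and 6 were not called, while over all tested genes 8.58% rose and 3.76% fell. PIN2 (AT5G57090), the efflux carrier of lateral root cap and epidermis, was at 323.3 and 288 CPM in the ACR4 line, 12.3 and 15.3 in SHR, 16.4 and 76.9 in SCR, 29.9 and 60.7 in CO2 and 347 and 335 in WER. ACR4 lay just under WER and above the other 6, with 2.44 (SE 0.32, adjusted p = 7.6e-05). ABCB4, a transporter known from the epidermis, rose by 0.97 (adjusted p = 0.00051), and the influx carrier AUX1, also called higher, was at 204 and 178 CPM in the ACR4 line, 138 and 107 in SHR, 32.4 and 69.0 in SCR, 54.7 and 92.6 in CO2 and 278 and 319 in WER. The efflux carriers PIN4 and PIN7 were among the falls, at −1.40 (adjusted p = 0.018) and −0.997 (adjusted p = 0.025). Without ACR4 replicate 1, without replicate 2 or without the SHR line, no carrier was called lower, and the 3 falls became 7 without the WER line and 6 without hyl1 WER replicate 1 or 2. Of 13 auxin response genes 4 rose, led by IAA1 at 1.95 (adjusted p = 0.00013), with IAA19, GH3.5 (WES1) and IAA2 at 0.995, 0.70 and 0.66. These last 3 lost the call in 22, 17 and 14 of 32 alternatives, IAA19 also with the replicate number as a block (adjusted p = 0.053). That count was 1 without ACR4 replicate 1 or 2, and ran from 1 to 5 over all alternatives.

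**Figure D3:**
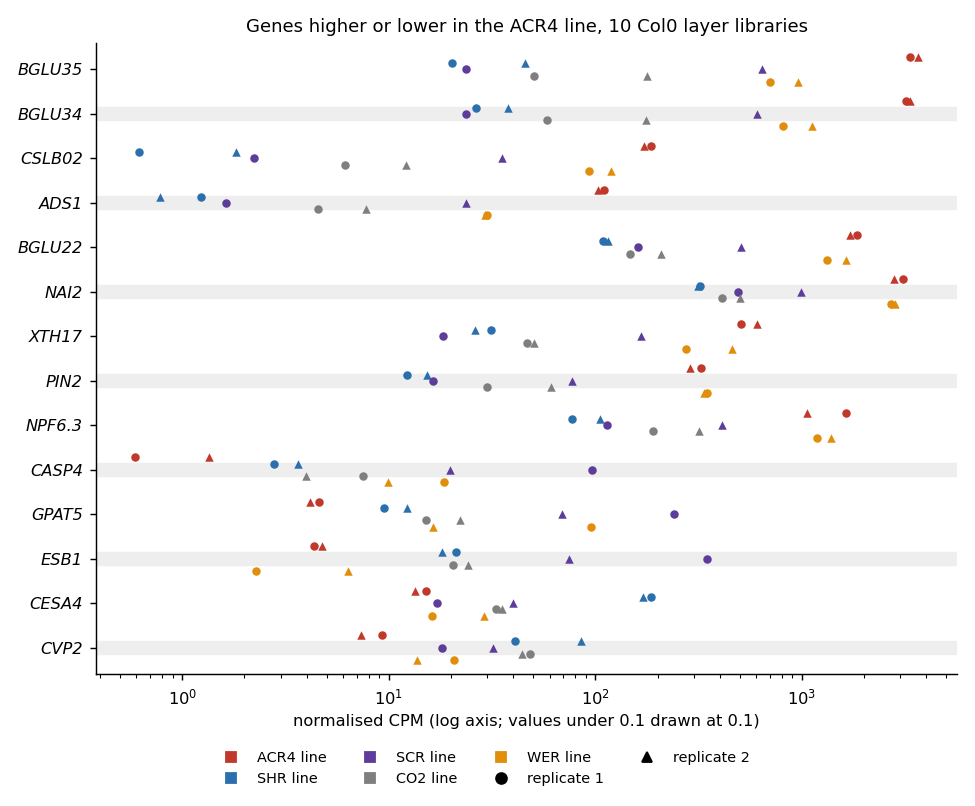
Normalised CPM on a log axis of genes that rose (upper 9) or fell (lower 5) in the ACR4 line, in the 10 Col0 layer libraries, coloured by line, circles for replicate 1 and triangles for replicate 2. ACR4 and WER lie together on the right for NAI2, PIN2 and NPF6.3, ACR4 alone for BGLU35 and BGLU34, and ACR4 is the lowest pair for CASP4 and CVP2.

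Wall and triterpene genes added to the rises, while over all tested genes 8.58% rose and 3.76% fell. Of 14 xyloglucan and expansin genes 5 rose and none fell, at a median of 0.29. XTH17 (AT1G65310), which cuts and joins xyloglucan, was at 509.9 and 609 CPM in the ACR4 line, 31.3 and 26.2 in SHR, 18.4 and 167 in SCR, 46.8 and 50.5 in CO2 and 276 and 460.4 in WER, both ACR4 libraries above all others, with 2.75 (SE 0.36, adjusted p = 7.8e-05). XTH18, XTH19 and XTH5 rose by 2.59, 2.05 and 2.13, and the expansin EXPA17 by 2.30, and the similar XTH17, XTH18 and XTH19 may share reads. Of 10 genes of triterpene clusters 5 rose and 1 fell, at a median of 1.31. Both ACR4 libraries were above all 8 others for 5 of them, beside 5.8% of all tested genes. THAD (AT5G47990), a cytochrome P450 of the thalianol cluster, was at 1089 and 1062 CPM in the ACR4 line, 155 and 141 in SHR, 62.2 and 430.5 in SCR, 213 and 145 in CO2 and 928 and 720.3 in WER, with 1.99 (SE 0.34, adjusted p = 0.00065). Its cluster neighbours THAH and the acyltransferase gene AT5G47980 rose by 1.47 and 1.97, and MRO of the marneral cluster by 1.42. CYP705A1 of the arabidiol cluster was at 1.296 and 0.244 CPM in ACR4, 36.0 and 9.13 in SCR and 0.433 and 0.422 in WER, and fell by 2.30 (adjusted p = 0.029). Without SCR replicate 2 the counts for the triterpene list were 7 and 1, and without ACR4 replicate 1 or 2 they were 2 and 1, or 3 and 0.

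Among the falls were genes of the inner tissues. Of 22 tested endodermis markers none rose and 13 fell, beside 8.58% and 3.76% of all tested genes, at a median of −1.69. The list summed to 183 and 172 CPM in ACR4, 5985 and 1648 in SCR, 318 to 698 in SHR and CO2 and 152 to 261 in WER. CASP4 (AT5G06200), which helps to build the Casparian strip, was at 0.589 and 1.34 CPM in the ACR4 line, 2.77 and 3.63 in SHR, 95.9 and 19.8 in SCR, 7.53 and 3.99 in CO2 and 18.4 and 9.96 in WER. The ACR4 pair was below all 8 others, and the contrast was −3.50 (SE 0.63, adjusted p = 0.0011). GPAT5 (AT3G11430), an acyltransferase of suberin synthesis, was at 4.60 and 4.15 CPM in the ACR4 line, 9.52 and 12.2 in SHR, 239.5 and 69.3 in SCR, 15.1 and 22.2 in CO2 and 94.9 and 16.4 in WER. ACR4 was again lowest, with WER replicate 1 far above replicate 2, and the contrast was −3.05 (SE 0.62, adjusted p = 0.0031). ESB1 (AT2G28670), needed to place lignin in the strip, was at 4.36 and 4.76 CPM in ACR4, 2.27 and 6.33 in WER and 18.1 to 345 elsewhere, with −2.46 (SE 0.53, adjusted p = 0.0044). CYP86A1 and ASFT, both of suberin synthesis, fell by 1.92 and 1.84. The 13 became 2 without ACR4 replicate 1 and 1 without replicate 2, and 15 without SCR replicate 2 or without that library and CO2 replicate 2. Without the SCR line 2 fell, and against the SCR and CO2 lines alone 20. Against single lines, 21 of 22 were lower than in SCR (5.01% of all genes), 15 than in CO2 (6.97%) and 3 than in SHR (8.85%), and against WER 2 were lower (1.16%) and 1 higher (2.39%).

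Of 27 stele markers none rose and 12 fell, beside 8.58% and 3.76% of all tested genes, at a median of −0.96. They summed to 323.3 and 301 CPM in ACR4, 289 and 288 in WER, 401 to 840 in SCR and CO2 and 1724 and 1714 in SHR. CVP2 (AT1G05470), a phosphatase of vein and protophloem formation, was at 9.31 and 7.33 CPM in the ACR4 line, 40.9 and 85.0 in SHR, 18.1 and 31.9 in SCR, 48.4 and 43.9 in CO2 and 20.8 and 13.7 in WER. ACR4 was below all 8 others, with −2.003 (SE 0.36, adjusted p = 0.001). CESA4 (AT5G44030), a cellulose synthase of secondary walls in xylem, was at 15.2 and 13.4 CPM in the ACR4 line, 187 and 169 in SHR, 17.2 and 40.1 in SCR, 33.1 and 35.3 in CO2 and 16.1 and 28.9 in WER, with ACR4 below the rest by a small margin to WER and SCR replicate 1, and had −1.64 (SE 0.29, adjusted p = 0.00094). The phloem gene OPS and the xylem genes CESA7 and XCP1 fell by 1.51, 1.34 and 1.23. Against single lines 17 were lower than in SHR (8.85% of all genes), 15 than in CO2 (6.97%) and 3 than in SCR (5.01%). Against WER 1 was higher (2.39%). The 12 became 7 without ACR4 replicate 1, 4 without replicate 2 and 5 without the SHR line.

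Smaller sets of falls lay in cuticle and glucosinolate genes, while over all tested genes 8.58% rose and 3.76% fell. Of 12 protoderm and cuticle genes, GPAT8 rose by 1.998 and LACS2, GPAT4 and CYP86A8, which make cutin and, in part, suberin monomers, fell by 1.87, 1.51 and 1.504. The 3 that fell were highest in SCR, LACS2 at 568 and 121 CPM against 15.9 and 11.2 in ACR4, and none of them was called without the SCR line and 1 without either ACR4 library. Of 10 indole glucosinolate genes 5 fell and none rose, at a median of −0.73. CYP79B3 (AT2G22330), which starts the pathway from tryptophan, was at 20.2 and 28.3 CPM in the ACR4 line, 115 and 105 in SHR, 50.8 and 67.3 in SCR, 100.3 and 73.9 in CO2 and 29.9 and 15.02 in WER, so that ACR4 and WER overlapped below the other 6, and fell by 1.298 (adjusted p = 0.001). SUR1, CYP83B1, SOT16 and the regulator MYB34 fell by 0.89, 0.81, 0.75 and 0.71, of which SOT16 lost the call in 20 of 32 alternatives and MYB34 in 8. The 5 became 2 without ACR4 replicate 1, 1 without replicate 2 and 3 without SHR replicate 1, WER replicate 2 or the SHR line. Of 11 aliphatic glucosinolate genes, MAM3 and SOT17 fell by 1.07 and 1.05, a count that was 6 with DESeq2, 5 without the SCR line and 10 without the WER line. In this list 10 were lower than in SHR (8.85% of all genes) and 10 than in CO2 (6.97%). Against WER 4 were higher (2.39%), at a median of 1.19.

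Of the 15 largest falls in single genes, 7 moved together across the libraries. AT3G60164, AT1G35640, AT5G44875, AT3G26525, AT2G29230, AT1G08735 and AT1G21040 had correlated counts (lowest r of log counts 0.986), though pairs of them differed by up to 50% in a library. AT3G26525, AT2G29230, AT1G08735 and AT1G21040 differed by at most 15% in every library, and whether they share reads was not tested. Their contrasts ran from −3.34 to −2.71 with adjusted p of 0.0019 to 0.0091. Their levels were 1.0995 to 2.36 CPM in ACR4, 29.8 to 82.7 in SHR, 21.4 to 26.4 in CO2, 7.99 to 19.6 in SCR and 0.759 to 6.39 in WER. The glycine-rich protein gene AT1G55990 fell by 2.83, the zinc finger factor ZFP1 by 2.79, AT2G35750 by 2.74, AT5G47530 of an auxin-responsive family by 2.60 and the noncoding AT1G53801 by 2.62. ZFP1, AT2G35750, AT5G47530, AT1G53801 and all 7 genes above lost the call without ACR4 replicate 2, while AT1G55990 kept it in all 32 alternatives. The plastid gene ATCG00690 was at 1.77 and 2.32 CPM in ACR4 and 5.77 to 58.2 elsewhere, with −2.78 (adjusted p = 0.044). That call was lost in 22 of 32 alternatives, among them the replicate block (adjusted p = 0.054), with an adjusted p of up to 0.32. ZFP1 and AT5G47530 were highest in WER replicate 1, at 42.1 and 218 CPM against 7.85 and 33.6 in WER replicate 2.

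In the family and pathway of the kinase, 3 of 10 genes were called, beside 12.3% of all tested genes. Of these 10 relatives and CLE receptors, CRR2 (AT2G39180) and CRR3 (AT3G55950), receptor-like kinases related to CR4 and listed as CCR2 and CCR3 in the gene table, rose by 2.117 and 0.98, and the CLE receptor BAM3 had −0.76 (adjusted p = 0.048). BAM3 lost the call in 20 of 32 alternatives, with −0.28 (adjusted p = 0.63) without the SHR line. CRR2 was at 71.0 and 64.0 CPM in the ACR4 line, 7.37 and 6.48 in SHR, 4.29 and 23.0 in SCR, 5.35 and 10.2 in CO2 and 77.1 and 81.9 in WER, with ACR4 and WER side by side above the rest. Of 10 stem cell and meristem genes BBM, a factor of the meristem, was the 1 called, at 0.825 and 2.44 CPM in ACR4 and 23.3 and 19.4 in SHR, with −2.26 (adjusted p = 0.035). It lost the call in 10 of 32 alternatives, with an adjusted p of up to 0.38. Of 11 epidermal fate genes WER rose and SUB, a receptor-like kinase that positions hair cells, fell by 1.31. Of 11 low oxygen genes the haemoglobin HB1 rose by 1.55 and the ethylene response factor RAP2.12 by 0.68. Without SCR replicate 2, and without it and CO2 replicate 2, the counts called were the same as with all libraries for the stele, xyloglucan and expansin, cuticle, indole glucosinolate, auxin carrier, auxin response and nitrate and ammonium lists. Without both libraries 7 iron genes in place of 6 rose and 3 aliphatic glucosinolate genes in place of 2 fell. In both settings no kinase family gene was called lower, 2 starch and gravity genes and 1 low oxygen gene were called lower, and 2 epidermal fate genes were called higher.

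Several lists gave no call by edgeR, beside 12.3% of all tested genes. A short list can hold no call at that share, so the absence says little on its genes. None of 17 cell division genes was called by edgeR, passed an unadjusted p of 0.05 or was called by DESeq2. Of 19 root hair genes edgeR called none, DESeq2 none, and 1 had an unadjusted edgeR p under 0.05, and of 7 cortex markers the numbers were none, none and 1. Of 15 jasmonate and touch genes edgeR called none, DESeq2 1, and 3 had such an unadjusted p, and of 9 abscisic acid and cold genes none, 1 and 1. Of 4 heat shock genes neither tool called any and 1 had such an unadjusted p, and the same numbers held for 10 nuclear photosynthesis genes. The summed level of the cortex markers was 16.1 to 83.8 CPM in the 10 libraries, and was 36.9 and 31.9 CPM in the CO2 line itself, so this list says little on cortex.

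Taken line by line, the ACR4 libraries were nearest to WER. The calls against SHR were 2858 higher and 2056 lower (12.3% and 8.85%, together 21.2%), against CO2 2161 and 1618 (9.31% and 6.97%, together 16.3%), against SCR 1303 and 1164 (5.61% and 5.01%, together 10.6%), and against WER 554 and 269 (2.39% and 1.16%, together 3.54%). Since the 4 contrasts share the ACR4 libraries, they are given side by side only. Library depth fell in the order WER, SCR, CO2 and SHR, the order in which the calls grew, and its part was not tested. Of the 15 cap markers, 9 were higher than in SHR, 8 than in SCR, 9 than in CO2 and 1, CR4, than in WER, at medians of 2.68, 1.78, 2.01 and 0.12. SMB had 3.38 against SHR, 2.40 against SCR, 3.05 against CO2 and −0.04 against WER. PIN2 had 4.46 against SHR, 2.71 against SCR, 2.75 against CO2 and −0.16 against WER. MC9 had 1.82 against SHR, 2.77 against SCR, 3.87 against CO2 and 1.34 against WER, the last not called. The WER contrasts of these cap and transport genes thus lay nearer 0 than the others, and the ACR4 and WER libraries come from different runs of library numbers. DESeq2 called 1538 genes between ACR4 and WER in place of 823, and the count was 384 or 202 without ACR4 replicate 1 or 2, 248 without WER replicate 1, 2105 or 2110 without hyl1 WER replicate 1 or 2, and 418 in a fit of the compared libraries alone. The 2467 calls against SCR became 2150 without SCR replicate 2, and the 3779 against CO2 became 2422 without CO2 replicate 2.

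**Figure D4:**
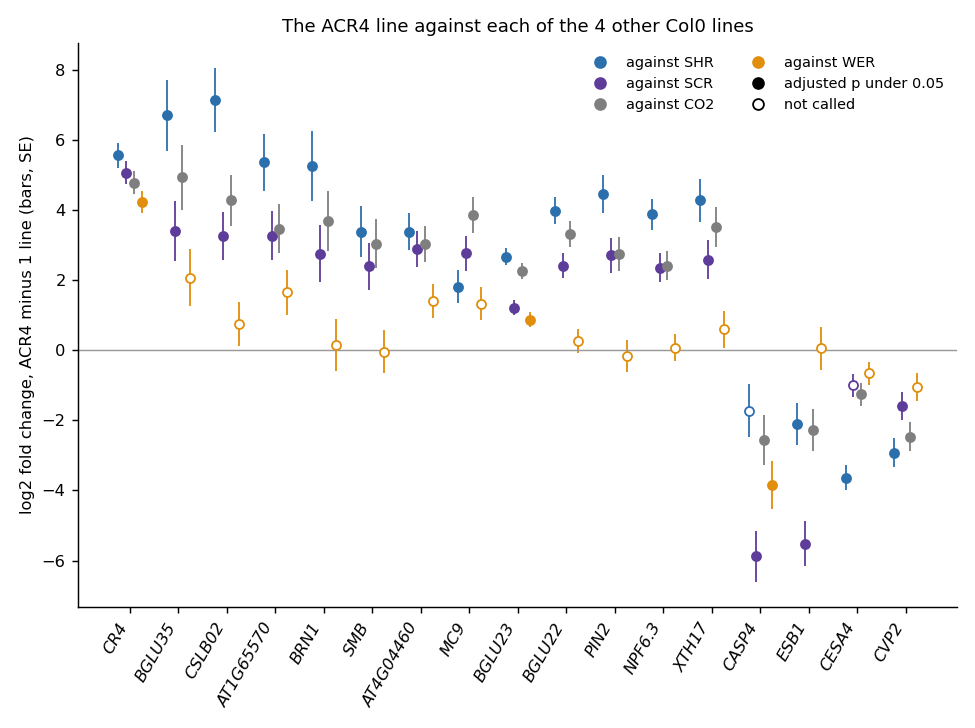
Log2 fold change of 17 genes in the ACR4 line against each single Col0 line, with bars for the SE, filled points where the adjusted p was under 0.05 and open points otherwise. All 4 points of CR4 are filled and lie between 4.23 and 5.57, while for SMB, BRN1, PIN2 and NPF6.3 the WER point is open and near 0.

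With all libraries in the fit, the same contrast in hyl1 gave fewer calls and, apart from CR4, little of the cap pattern. The order of the call counts was not kept without hyl1 WER replicate 1, where hyl1 had more calls than Col0. With all libraries, 556 genes were higher and 167 lower in the hyl1 contrast (2.39% and 0.719%, together 3.11%). CR4 was at 1164 and 1040.5 CPM in the hyl1 ACR4 libraries and its contrast was 7.73 (adjusted p = 3e-14). Of the 15 cap markers CR4 was the 1 called higher, of the 11 ER body genes 2 were, and the medians of the cap, cell death and ER body lists were 0.09, −0.12 and 0.45 beside 0.08 over all genes. SMB was at 5.73 and 9.74 CPM and MC9 at 26.1 and 22.9, both under every wild-type ACR4 value. The cell death list summed to 181 and 182 CPM, the ER body list to 8216 and 8243, the stele list to 779 and 772 and the endodermis list to 564 and 584 in these libraries. The 10 transcripts with the largest summed share over the wild-type layer libraries took 33.3 and 36.9% of the counts in them. How far these shares bear on the contrast was not tested. The 723 calls became 117 or 77 without hyl1 ACR4 replicate 1 or 2, 378 without hyl1 SCR replicate 1, 400 without hyl1 CO2 replicate 1, and 5093 or 1774 without hyl1 WER replicate 1 or 2.

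The difference between the genotypes was tested directly. The contrast was larger in Col0 for 466 genes and smaller for 370 (2.01% and 1.59%, together 3.6%). For the cell death list the difference was called for 5 of 7 genes, all larger in Col0, and for the ER body list for 6 of 11. MC9 differed by 2.57 (SE 0.54, adjusted p = 0.018) and AT4G04460 by 2.65 (SE 0.55, adjusted p = 0.018). For the cap markers 2 were called, AT1G65570 with 3.49 (SE 0.79, adjusted p = 0.023) and CR4 in the other direction with −2.81 (SE 0.33, adjusted p = 0.00073), while SMB, with a log2 difference of 2.26, was not called. The 5 smallest p were those of AT1G60095, CR4, GDH2, SCPL34 and NSP4. AT1G60095, a mannose-binding lectin gene, was at 674 and 739 CPM in Col0 and 5279.5 and 5838 in hyl1 ACR4 libraries and had −2.74 (SE 0.24, adjusted p = 2.8e-05). SCPL34, a serine carboxypeptidase, was at 408 and 392.1 and 26.6 and 25.7 and had 3.19 (SE 0.40, adjusted p = 0.0011). These counts rest on few libraries: 836 in all became 31 and 126 without Col0 ACR4 replicate 1 or 2, 84 and 4 without hyl1 ACR4 replicate 1 or 2, 442 to 534 without any 1 of the hyl1 SCR, CO2 or SHR libraries, and 3829 and 2178 without hyl1 WER replicate 1 or 2.

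**Figure D5:**
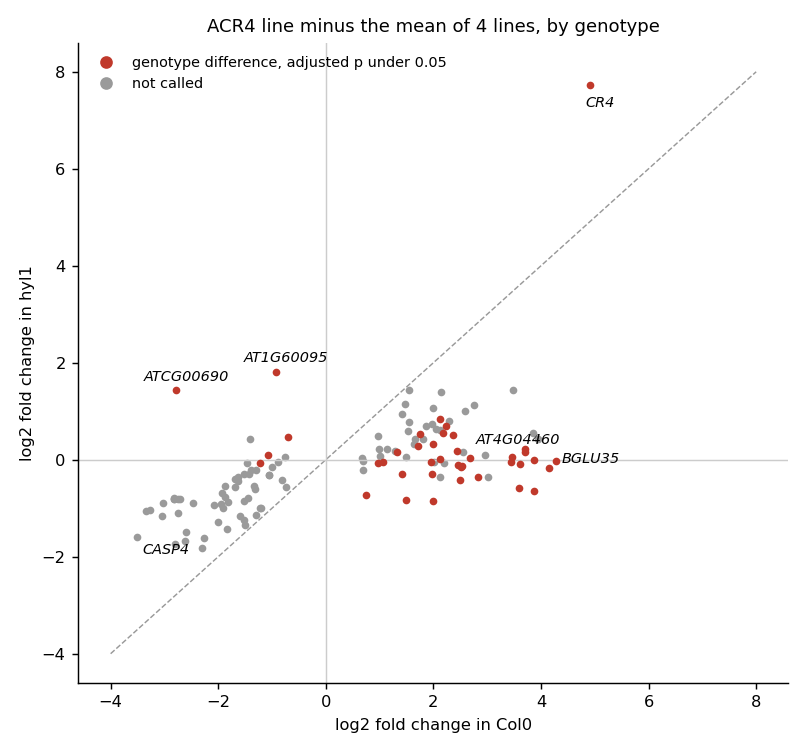
Log2 fold change of the ACR4 line against the mean of the 4 other lines in Col0 (x axis) and hyl1 (y axis) for the 128 genes whose contrasts were followed through all alternatives. Red points differ between genotypes at an adjusted p under 0.05, the dashed line marks equal change, and most rises in Col0 lie near 0 in hyl1, with CR4 at 4.92 and 7.73. Most of these genes were picked for their Col0 contrast, so a smaller value in hyl1 is favoured by the choice.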

How the data were processed

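The deposited values were read counts for 33602 genes in 1 table, and the submitters' processing notes name featureCounts (Subread). Also named there are the TAIR10 genome, TopHat2 2.0.11 with Bowtie2 2.2.1.0, and CASAVA 1.8.2. The use of strand and of reads with several matches is not given in the sources used here. Gene names came from the TAIR10.1 gene table (32835 of 33602 identifiers, 97.7%), and no coordinates or sequences were used, since the builds differ. Library and group were taken from the sample titles and column names.

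The deposited counts went unchanged into edgeR 4.0.16 under R 4.3.3 (quasi-likelihood F test, TMM scaling, filterByExpr with min.count 10 and min.total.count 15), in 1 fit of 12 groups and 24 libraries (23219 genes, common dispersion 0.126). SE is that of the log2 fold change, derived from the test as the absolute change divided by the square root of its F statistic. Genes with a Benjamini-Hochberg adjusted p under 0.05 were called, and "rose" and "fell" refer to these calls, in log2 units. Correlations used log2 CPM with a prior count of 2. The total of 8589721 and 8193056 counts in the ACR4 libraries limits the precision of low genes, and no library was dropped.

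Named genes were those of the promoters and the tag, the 15 largest rises and 15 largest falls with a mean log2 CPM of at least 2 and 1 sign against all 4 lines, up to 5 called members of each list and the 5 smallest p of the genotype difference. A called list member is not reported here. SMB, CEL5, ARF10, ARF16, ARL2, AT1G72490, PIN3, FEZ, IAA33, LZY2, BFN1, DMP4, TSA1, AUX1 and the genes of the closing section were named after their values were seen. The members, lists and tests were chosen with earlier results of these data known. Alternatives were DESeq2 1.42.0, RLE scaling, no filter, other library sets, a replicate block, and each library or line left out.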

Additional observations from a re-analysis of the deposited data

Results flagged for a closer look

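The contrast of the ACR4 line with the 4 other lines differed between Col0 and hyl1 by a direct test of the difference in edgeR for 836 genes at an adjusted p under 0.05. Of the genes described above or below, the following were among them, each given as the Col0 contrast minus the hyl1 contrast on the log2 scale, from the same test. Most of them were picked for their Col0 contrast, which is part of the difference, so large differences are favoured by the choice. CR4 differed by −2.81, the 1 cap gene that was further raised in hyl1. Among the largest Col0 rises, the values were 4.30 for BGLU35, 4.31 for BGLU34, 4.50 for CSLB02, 4.18 for AT5G58784, 3.89 for AT3G03500, 3.71 for AT1G16905, 3.53 for AT1G52050, 3.49 for AT1G52060 and 3.40 for AT1G27110. Cap separation and cell death genes gave 3.49 for AT1G65570, 2.91 for AT2G14095, 2.65 for AT4G04460, 2.65 for RNS3, 2.57 for MC9 and 1.48 for SCPL48. ER body genes gave 2.66 for BGLU22, 1.66 for NAI2, 1.52 for BGLU21, 1.29 for PBP1 and 1.24 for BGLU23.

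Transport and auxin genes gave 2.26 for PIN2, 2.1 for AMT1;1, 1.996 for IAA1, 1.64 for NPF6.3, 1.16 for AHA2 and 1.05 for ABCB4. GPAT8 differed by 2.85 and ADG1 by 1.12. SCPL34 differed by 3.19, GDH2, a glutamate dehydrogenase, by 2.26 and NSP4, a nitrile specifier protein, by 1.70. ASD1, TIP2;2 and PSK4 differed by 2.32, 1.84 and 1.42. Below 0, where the contrast was lower in Col0, lay ATCG00690 at −4.21, AT1G60095 at −2.74, MYB34 at −1.18, MAM3 at −1.17 and XCP1 at −1.16. The libraries behind both contrasts differed too. The 10 transcripts with the largest summed share over the Col0 layer libraries took 9.88 and 10.7% of the counts in the Col0 ACR4 libraries and 33.3 and 36.9% in the hyl1 ones. The part of this in the differences was not tested. No group had more than 2 libraries, so single libraries could not be tested as outliers, and the hyl1 WER libraries, which enter the hyl1 contrast, correlated with each other at r = 0.752.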

How the results depend on the processing

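Of the 127 called genes whose contrasts were followed through every alternative, 58 kept call and direction in all of them and 69 lost the call in at least 1, and no gene changed sign. SHR, the 1 gene followed that was not called, passed in at least 1 alternative. The counts moved far more than the directions. The 873 falls became 1628 with DESeq2, 421 without the SHR line, 551 without the CO2 line, 1939 without the WER line and 1593 with only the SCR and CO2 lines, and the 1993 rises 1059 without the SHR line and 3035 without the WER line, so that all calls were 1480 and 4974 in these last settings. DESeq2 gave 1538 calls against WER, 1307 in hyl1 and 1621 for the genotype difference, and fits of only the compared layer libraries gave 418, 397 and 368.

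With 1 library left out, calls ran from 916 to 4943 for the contrast with all 4 lines (825 to 3240 rises, 91 to 1778 falls), 2914 to 7404 against SHR, 1102 to 4202 against SCR, 1741 to 6280 against CO2, 202 to 2110 against WER, 77 to 5093 in hyl1 and 4 to 3829 for the genotype difference. For the first contrast and those against single lines, the highest counts came without hyl1 WER replicate 1 or 2 and the lowest without an ACR4 library, except against CO2, where it came without CO2 replicate 1. Against SHR the count was 2935 without SHR replicate 2, against SCR 1326 without SCR replicate 1, and against CO2 2422 without CO2 replicate 2. A group left with 1 library was assumed to vary like the others, and these fits tested more genes, 24415 to 25199, since the filter follows the smallest group. The cause of these moves was not tested further.

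Libraries with the same replicate number showed little shared deviation, with correlations of −0.11 to 0.0928 over 10 pairs of groups. Whether samples were collected in pairs is not given in the labels. With the number as a block the calls were 2777 for the contrast with all 4 lines, 4770 against SHR, 2374 against SCR, 3609 against CO2, 791 against WER, 649 in hyl1 and 736 for the genotype difference, and of the genes followed ATCG00690 and IAA19 lost the call (adjusted p = 0.054 and 0.053) and no other did. The median contrast over all tested genes stayed between −0.04 and 0.09 in every setting. With 2 libraries a group, a gene that was not called may still differ. Leaving out SCR and CO2 replicates 2 together, hyl1 libraries for the Col0 contrasts, and Col0 libraries for the hyl1 contrast was chosen after seeing the data.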

Other observations

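Several genes outside the lists stood apart from all 4 lines, also from WER. They were picked after their values were seen, from genes called against every single line, so their agreement is no test. Lower in ACR4 were SE (AT2G27100), a zinc finger protein of microRNA processing and splicing, at 20.3 and 12.8 CPM in the ACR4 line, 35.6 and 64.6 in SHR, 36.4 and 71.2 in SCR, 89.6 and 77.1 in CO2 and 47.7 and 57.5 in WER, and SR45 (AT1G16610), a splicing factor, at 22.9 and 8.06 CPM in the ACR4 line, 31.6 and 70.5 in SHR, 40.9 and 61.6 in SCR, 52.3 and 68.7 in CO2 and 70.6 and 62.1 in WER. Both ACR4 libraries were below all 8 others for both genes, and the contrasts were −1.82 (SE 0.35, adjusted p = 0.0017) for SE and −1.88 (SE 0.39, adjusted p = 0.0034) for SR45 by edgeR. The splicing proteins ATU2AF65A, SUA, DOT2, RS41 and SC35 fell by 1.69, 1.63, 1.44, 1.296 and 1.05, and FIB1, a fibrillarin of the nucleolus, by 1.22. No list of splicing genes was counted, so these genes say nothing on splicing genes as a class. Without ACR4 replicate 2, SE, SR45, SUA, DOT2, RS41, SC35 and FIB1 all lost the call (adjusted p of 0.083 for SE to 0.18 for FIB1), and without replicate 1 SUA and SC35 did, while ATU2AF65A kept it in all 32 alternatives. The lignin and flavonoid pathway ligases 4CL1, 4CL3 and 4CL2 fell by 1.94, 1.69 and 1.53, and 4CL1 was at 34.6 and 30.7 CPM in the ACR4 line, 126 and 126 in SHR, 341 and 132 in SCR, 111 and 105 in CO2 and 96.9 and 55.4 in WER.

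Higher in ACR4 than in each line was TIP2;2 (AT4G17340), an aquaporin of the vacuole membrane, at 781 and 609.7 CPM in the ACR4 line, 33.8 and 52.9 in SHR, 297 and 317 in SCR, 79.3 and 104 in CO2 and 283 and 274 in WER. The ACR4 pair was above all 8 others by more than 1.5 times, with 2.36 (SE 0.16, adjusted p = 2.1e-07). MLP329, of the major latex protein family, rose by 2.15, PSK4, a precursor of the growth peptide phytosulfokine, by 1.72, the thioredoxin TRX5 by 1.55 and ASD1, an arabinofuranosidase, by 1.497. In hyl1, TRX5 and MLP329 had contrasts of 1.43 (adjusted p = 0.00033) and 1.40 (adjusted p = 0.0088).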
